A study of Mus musculus with 79 samples.

Results

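The 9 genes described here encode the core of glycogen synthesis, glycogen targeting and glycogen breakdown: Gys1, Gyg, Ugp2, Gbe1, Pygm, Ppp1r3b, Ppp1r3c, Stbd1 and Epm2a. They were taken by symbol from a fixed list, and all 9 were found both among the 14253 genes of the RORA tables and among the 12952 genes of the PER2 tables. Their RNA was measured by RNA-seq in mouse muscle from 2 muscle-specific knockouts (MKO), one of PER2, a repressor of the circadian clock, and one of RORα (gene Rora), a nuclear receptor that acts on clock genes. Each knockout had its own controls (CTRL), whose genotype the labels give as WT. Mice were sampled through the day at 6 zeitgeber times (ZT, counted in hours from lights on), with 3 or 4 mice per genotype and ZT and 1 library per mouse, giving 24 PER2 MKO, 19 PER2 CTRL, 18 RORA MKO and 18 RORA CTRL libraries. The Cre driver, which muscle was taken, and the age and sex of the mice were not given in the sources used here. Because the tissue is bulk muscle, fewer cells of a type and less RNA per cell cannot be told apart.

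Glycogen is the glucose store of muscle fibres. Glycogenin starts each particle, glycogen synthase lengthens the chains with glucose from UDP-glucose, and branching enzyme adds branch points, while phosphorylase releases glucose phosphate when the fibre contracts. Protein phosphatase 1, brought to the particle by glycogen-targeting subunits, turns synthase on and phosphorylase off, and both enzymes are under opposite control by kinases.

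The deposited values are comparisons of MKO with CTRL, 1 per knockout and ZT, each as a log2 fold change. A value at 1 ZT is given with its standard error, which is the authors' own for RORA and was derived from the likelihood ratio for PER2. Where 6 values are given in a row, they run in order from ZT0 to ZT20 in steps of 4 h. A mean is the plain mean ± SD over the 6 ZT (n = 6 ZT comparisons), so the SD holds time of day as well as sampling error. For RORA, the knockout is set over its wild-type control. The direction of the PER2 fold changes is not stated, so these are written by the sign of the deposited value. A gene was called at a ZT where its adjusted p in the authors' deposited table was below 0.05.

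In the RORA knockout, the glycogen receptor Stbd1 rose 2.71-fold on average (log2 mean 1.44 ± 0.18), the phosphatase subunit Ppp1r3b 1.69-fold (0.76 ± 0.37) and the UDP-glucose enzyme Ugp2 1.40-fold (0.49 ± 0.06). Glycogenin (Gyg) fell to 0.797 of the control level (log2 mean -0.33 ± 0.04) and the phosphatase subunit Ppp1r3c to 0.770 (-0.38 ± 0.24). The genes for synthase, branching enzyme, muscle phosphorylase and laforin (Gys1, Gbe1, Pygm, Epm2a) had means within 0.10 of 0 on the log2 scale. In the PER2 tables the member with the mean largest in size was Ppp1r3b, at -0.71 ± 0.20, and Stbd1 and Gyg did not pass the test over the 6 ZT.

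The promoters of the members that were called at every ZT of the RORA tables, and of Ppp1r3c, whose window held a clock motif, are shown here as the DNA next to their transcription starts. RefSeq windows (build GRCm38.p6) of 300 bases, from 250 before to 50 after a start, were at hand for 8 of the 9 members, in 9 windows. Ppp1r3b had no entry. The stretches are printed 5′ to 3′ on the gene's strand, in lower case, with the E-box letters CACGTG in capitals. The Stbd1 stretch is chr5:92602801-92603040 (plus strand), the Ppp1r3c stretch chr19:36736654-36736854 (minus strand), the Ugp2 stretch chr11:21371268-21371459 (minus strand) and the Gyg stretch chr3:20155091-20155120 (minus strand). The first 3 lie upstream of the start, outside any exon of GENCODE M21, and the short Gyg stretch runs across it into the first exon.
Stbd1: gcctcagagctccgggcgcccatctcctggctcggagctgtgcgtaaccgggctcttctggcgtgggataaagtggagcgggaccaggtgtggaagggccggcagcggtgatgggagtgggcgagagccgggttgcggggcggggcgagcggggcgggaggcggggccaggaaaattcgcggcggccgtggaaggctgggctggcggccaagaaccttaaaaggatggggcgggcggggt
Ugp2: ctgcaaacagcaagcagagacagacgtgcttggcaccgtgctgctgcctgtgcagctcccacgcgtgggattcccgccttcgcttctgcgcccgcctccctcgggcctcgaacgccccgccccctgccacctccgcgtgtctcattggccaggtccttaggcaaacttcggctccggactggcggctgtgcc
Gyg: agcctgcgcggcCACGTGacggccgctata
Ppp1r3c: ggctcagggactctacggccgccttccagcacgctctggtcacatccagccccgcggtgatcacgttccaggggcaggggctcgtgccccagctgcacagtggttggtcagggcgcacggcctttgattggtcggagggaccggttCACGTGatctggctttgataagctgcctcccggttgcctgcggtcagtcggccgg
Searched on both strands, CACGTG, the E-box bound by the clock activators, was found in 2 of the 9 member windows and in 7.15% of all 32851 RefSeq windows of this length. Its first base lay at -104 from the start of Ppp1r3c and at 9 from the start of Gyg. AGGTCA, the half-site of nuclear receptors, was in 0 of the 9 member windows and in 16.3% of all windows. TAGGTCA, the core of the ROR element, which contains the half-site, was in 0 of the 9 and in 2.61% of all. TTANGTAA, the D-box, was in 0 of the 9 and in 2.32% of all. A match is a description of letters, and its absence says only that these letters are not in the window.

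Transcript levels of the members spanned a wide range. Per kb of the longest annotated transcript, Pygm, the muscle glycogen phosphorylase, stood at a mean normalized count of 28769 per kb over the RORA libraries. Ugp2 followed at 4209 per kb, Gyg at 1990 per kb, Ppp1r3c at 1542 per kb and Gys1 at 1313 per kb. Epm2a stood at 437 per kb, Stbd1 at 324 per kb and Gbe1, the branching enzyme, at 163 per kb. Ppp1r3b was the lowest, at 4.34 per kb, with a mean normalized count of 19.0 that placed it at the 20.4th percentile of all RORA genes. The PER2 libraries gave the same order of the 9 members, from 2690 CPM (counts scaled to library size) per kb for Pygm to 0.396 CPM per kb for Ppp1r3b. The deposited level is 1 value per gene and knockout, so it has no spread over libraries and neighbours in this order were not tested.

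**Figure D1:**
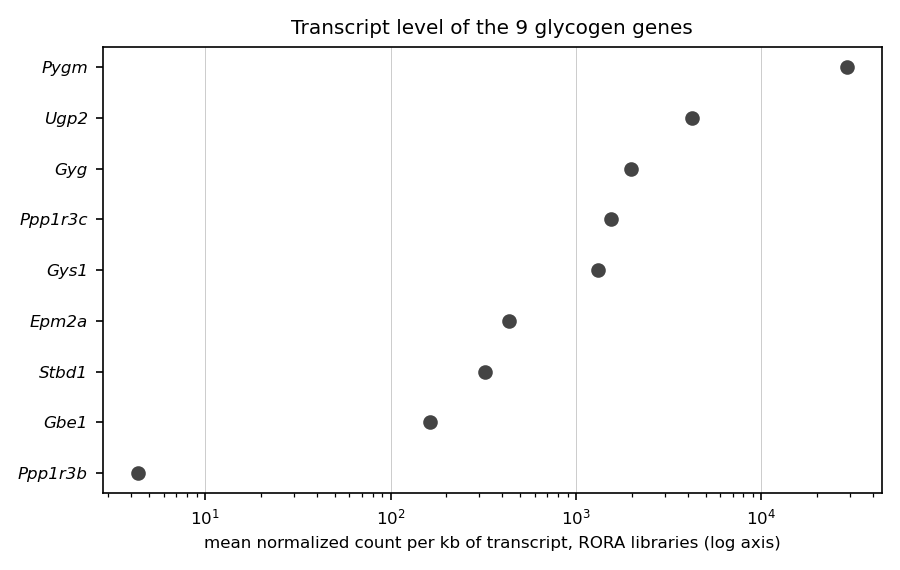
Level of each of the 9 glycogen genes in the RORA libraries, as mean normalized count per kb of the longest annotated transcript (log axis); each point is 1 deposited value with no spread. Pygm stands at 28769 per kb and Ppp1r3b at 4.34 per kb.

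The targeted gene was examined in each set. Rora fell by 1.78 ± 0.15 on the log2 scale in the RORA set and was called at 6 of 6 ZT. Per2 in the PER2 set had a mean of 0.37 ± 0.29, from -0.16 to 0.70, and was called at 1 ZT. Which part of Per2 was deleted, and which genotype is the numerator, were not given in the sources used here. These values therefore do not show whether Per2 RNA was lower in the knockout. Of 6 markers of skeletal muscle fibres, all measured in both sets, 2 rose and 3 fell in the RORA set and 1 was negative in the PER2 set. In the RORA set all 8 of 8 endothelial markers rose, with a median of 0.16, and at single ZT their median ran from 0.04 at ZT4 to 0.27 at ZT8. There the medians of slow-fibre markers ran from -0.19 at ZT4 to 0.69 at ZT0, and those of Schwann cell markers from -0.32 at ZT4 to 0.62 at ZT20. Over the 6 ZT, 1 of 8 white adipocyte markers rose (Car3, also a muscle gene), but their median ran from -0.50 at ZT0 (6 called) to 0.44 at ZT20 (7 called). Red blood cell markers had 1 of 4 up over the 6 ZT and 4 of 4 called at both ZT8 and ZT20, with medians of 0.39 and 0.27. Macrophage and leukocyte markers had 1 of 8 up, and hepatocyte markers 0 of 4, with Alb at 5.64 at ZT20 in the authors' deposited table. In the PER2 set 5 of 5 red blood cell markers had a negative mean that passed the test, the lowest medians being -1.35 at ZT4 and -1.01 at ZT12. There 3 of 8 endothelial markers were negative, with a median of -0.10, and Car3 stood at -1.03 ± 0.36, the 1 of 8 white adipocyte markers that passed, while the median of that list was lowest at ZT12, at -0.74. Slow-fibre medians in the PER2 set ran from -0.32 at ZT0 to 0.31 at ZT16, and Schwann cell medians from -0.39 at ZT20 to 0.29 at ZT16. Over the 6 ZT, 0 of 10 and 0 of 8 of these markers passed. Alb in the PER2 set ran from -2.42 at ZT16 to 2.51 at ZT20, where it was called. Transcript length and GC content, fitted as a smooth trend, accounted for 17.6% of the variance of PER2 fold changes at ZT4 and for 13.8% at ZT12, against 3.17% to 3.59% at the other ZT. The part of these shifts in the values of the glycogen genes was not tested except where a value is given.

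Calls at single ZT were frequent in the RORA tables. At ZT0, 6 of the 9 members were called, where 28.1% of all genes were. At ZT4 it was 6 members against 29% of all genes, at ZT8 7 against 27.8%, at ZT12 6 against 22.1%, at ZT16 4 against 20.7% and at ZT20 8 against 32.2%. Gyg, Ugp2 and Stbd1 were called at all 6 ZT with 1 sign, which held for 8.64% of all genes. Over the 6 ZT, 8 of the 9 members passed the test of an inverse-variance weighted mean with a normal p adjusted over all genes, where 38.2% of genes did. Of these, 4 rose (Gys1, Ugp2, Ppp1r3b, Stbd1), where 18.9% of all genes did, and 4 fell (Gyg, Ppp1r3c, Pygm, Epm2a), where 19.3% did. Calls were more frequent among abundant genes. Of the genes at 500 mean normalized counts or more, a limit chosen after the values were seen, 73.8% passed, as did 7 of the 8 members above that level. The count of members past the threshold was thus near that among abundant genes. The median size of the mean was 0.33 among the members and 0.06 among all genes. Sizes were not compared with those of genes at a like level, so this contrast holds the level too.

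**Figure D2:**
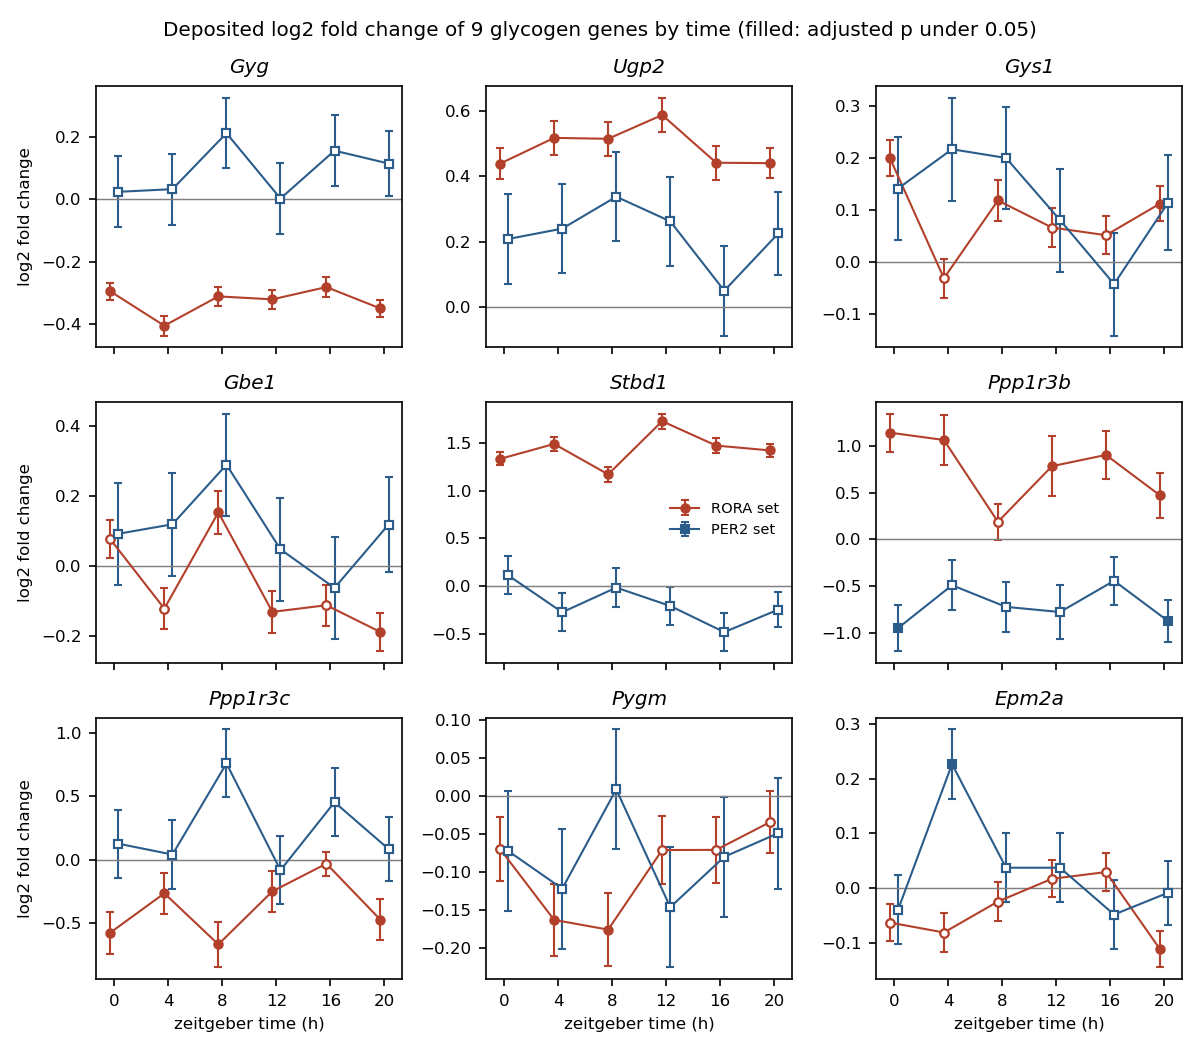
Log2 fold change (y axes differ by panel) of each glycogen gene against zeitgeber time in h, for the RORA set (circles) and the PER2 set (squares), with bars of 1 standard error and filled symbols where the deposited adjusted p was under 0.05. RORA values of Gyg lie between -0.41 and -0.28 and those of Stbd1 between 1.17 and 1.73, while the PER2 values of Ppp1r3b lie between -0.95 and -0.44.

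Among the enzymes of synthesis, Gyg and Ugp2 moved in opposite directions in the RORA knockout. Gyg, glycogenin, primes the particle. In the authors' deposited table for RORA, its log2 fold change was -0.29 ± 0.03, -0.41 ± 0.03, -0.31 ± 0.03, -0.32 ± 0.03, -0.28 ± 0.03 and -0.35 ± 0.03. Every value was below 0 by at least 8 errors, and they spanned no more than -0.41 to -0.28. The mean was -0.33 ± 0.04, 0.797 of the control level, with an adjusted p of 7.87e-151, and Cochran's Q, the test of a change with ZT, gave an adjusted p of 0.282. Ugp2, UDP-glucose pyrophosphorylase, makes the activated glucose that synthase uses. The authors' deposited table for RORA gave 0.44 ± 0.05, 0.52 ± 0.05, 0.51 ± 0.05, 0.59 ± 0.05, 0.44 ± 0.05 and 0.44 ± 0.05. The mean of 0.49 ± 0.06, 1.40 times the control level, had an adjusted p of 2.41e-122, and Q gave 0.604. Exons of Ugp2 share 78 of 3069 bases with Gm12043 on the opposite strand, a gene not found by symbol in either set.

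Glycogen synthase and branching enzyme had small fold changes, with both signs among the 6 ZT. Gys1, the muscle glycogen synthase, had log2 fold changes of 0.20 ± 0.04, -0.03 ± 0.04, 0.12 ± 0.04, 0.07 ± 0.04, 0.05 ± 0.04 and 0.11 ± 0.03 in the authors' deposited table for RORA, and was called at ZT0, ZT8 and ZT20. Its mean was 0.09 ± 0.08, with an adjusted p of 1.82e-08 for the weighted mean and of 0.0715 when limma was run on the 6 values per gene. Exons of Gys1 share 310 of 4789 bases with Ruvbl2 on the opposite strand, and the use of strand in counting was not given in the sources used here. Ruvbl2 stood at a mean normalized count of 221 and had a mean of 0.03 ± 0.05 in the RORA set, which did not pass the test. Gbe1 had 0.08 ± 0.05, -0.12 ± 0.06, 0.15 ± 0.06, -0.13 ± 0.06, -0.11 ± 0.06 and -0.19 ± 0.06 in the authors' deposited table for RORA. It was called with a positive sign at ZT8 and with a negative sign at ZT12 and ZT20. Its mean of -0.05 ± 0.14 missed the threshold (adjusted p = 0.0501) and passed without ZT8 (weighted mean -0.09, adjusted p = 0.00148), without ZT0 (0.00388), with a filter on low levels (0.0362) and with Stouffer's sum (0.0159). It did not pass with limma (0.433), and without ZT20 the weighted mean was -0.026 (0.567). Nor did it pass without ZT4 (0.211), ZT12 (0.221) or ZT16 (0.188).

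Stbd1 and Ppp1r3b, 2 of the targeting genes, had the highest means of the 9, at the 99.7th and the 99.0th percentile of all RORA genes. Stbd1 is a glycogen-binding protein that links glycogen to membranes and to its delivery to lysosomes. In the authors' deposited table for RORA its log2 fold change was 1.33 ± 0.07, 1.49 ± 0.08, 1.17 ± 0.08, 1.73 ± 0.08, 1.47 ± 0.08 and 1.42 ± 0.07. Every ZT was above a doubling, from 2.25-fold at ZT8 to 3.32-fold at ZT12, and the mean was 1.44 ± 0.18. Ppp1r3b (GL, best known from liver) brings protein phosphatase 1 to glycogen. Its log2 fold change in the authors' deposited table for RORA was 1.15 ± 0.20, 1.07 ± 0.27, 0.19 ± 0.19, 0.79 ± 0.32, 0.91 ± 0.26 and 0.47 ± 0.24. It was called at all ZT but ZT8, where the authors' deposited adjusted p was 0.123. The mean was 0.76 ± 0.37 with an adjusted p of 7.04e-13, at the lowest level of the 9 genes. With 19.0 mean normalized counts it falls below the filter of 50 used as an alternative, so it has no RORA value under that filter.

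Ppp1r3c (PTG), another subunit that targets the phosphatase to glycogen, went the other way. The authors' deposited table for RORA gave -0.58 ± 0.16, -0.27 ± 0.16, -0.67 ± 0.18, -0.25 ± 0.16, -0.03 ± 0.09 and -0.47 ± 0.16. The loss was deepest at ZT8 and ZT0, and ZT16 alone was not called. The mean was -0.38 ± 0.24 with an adjusted p of 5.84e-06, and the weighted mean was -0.28. The RORA fold changes behave like shrunken ones: the ratio of fold change to error was 0.554 to 0.774 times the z of the p for Ppp1r3c and 0.480 to 0.911 times for Ppp1r3b, against 0.980 to 0.993 times for Stbd1. The sizes of Ppp1r3b and Ppp1r3c may thus be understated, by an amount that differs between ZT.

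Breakdown and phosphate removal showed small changes in the RORA set. Pygm had -0.07 ± 0.04, -0.16 ± 0.05, -0.18 ± 0.05, -0.07 ± 0.05, -0.07 ± 0.04 and -0.03 ± 0.04 in the authors' deposited table for RORA. All 6 values were below 0, those at ZT4 and ZT8 were called, and the mean of -0.10 ± 0.06, 0.934 of the control level, had an adjusted p of 1.61e-06. Epm2a, laforin, removes phosphate from glycogen and is lost in Lafora disease. Its RORA values ran from -0.11 ± 0.03 at ZT20, the 1 ZT called in the authors' deposited table, to 0.03 ± 0.03 at ZT16. The mean of -0.04 ± 0.06 had an adjusted p of 0.0148, which was 0.287 without ZT20, 0.0892 without ZT4, 0.0648 without ZT0 and 0.275 with limma.

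The fold change differed between ZT for 3 members in the RORA set by Cochran's Q, where 11% of all genes did. Shares of all genes given for Q were not matched for level. Stbd1 had an adjusted p of 0.00107, with its lowest value at ZT8 and its highest at ZT12. Gbe1 had 0.00167, with calls of both signs. Gys1 had 0.00637, and its only negative value, -0.03 ± 0.04 at ZT4, was not called. Ppp1r3c, with 0.0538, and Ppp1r3b, with 0.0756, missed the threshold, while Ppp1r3c passed without ZT12 (0.0302) or without ZT4 (0.0414) and Ppp1r3b without ZT12 (0.0437). Ppp1r3c did not pass without ZT16 (0.743), ZT8 (0.171), ZT0 (0.106) or ZT20 (0.0559). Ppp1r3b did not pass without ZT8 (0.723), ZT0 (0.257), ZT4 (0.107), ZT20 (0.0733) or ZT16 (0.0565). With Q on z values Ppp1r3c was at 0.106 and Ppp1r3b at 0.211, while Epm2a passed at 0.0483, against 0.124 in the main test. The calls rest on single times: that of Stbd1 was lost without ZT12 (adjusted p = 0.151) or ZT8 (0.0518), that of Gbe1 without ZT8 (0.0935), and that of Gys1 without ZT0 (0.194) or ZT4 (0.226). A cosine of period 24 h passed for 0 of the 9, with Q itself at an unadjusted p under 0.05 for 6 members, where 21% of all genes were. Q takes the authors' errors as exact.

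In the PER2 tables few members were called. At ZT0 Ppp1r3b was called, where 2.7% of all genes were, and at ZT20 it was called again, where 1.52% were. At ZT4 Epm2a was called, where 12.2% of all genes were. At ZT8 (1.78% of all genes), ZT12 (3.34%) and ZT16 (0.811%) the deposited adjusted p called 0 members. At an unadjusted p under 0.05 there were 5 members at ZT8, where 10.9% of all genes were, 1 at ZT12 (17.4% of all genes) and 1 at ZT16 (6.32%). The 5 at ZT8 were Gys1, Ugp2, Gbe1, Ppp1r3b and Ppp1r3c, of both signs. Called at all 6 ZT with 1 sign were 0 members, against 0.34% of all genes. Over the 6 ZT, Stouffer's sum passed for 3 of 9 members, where 21.6% of all genes passed. Gys1 and Ugp2 were positive, where 10.9% of all genes were, and Ppp1r3b was negative, where 10.6% were. The median size of the mean was 0.12 among the members and 0.07 among all genes, again not matched for level.

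Ppp1r3b was negative at each ZT of the PER2 set, with a mean at the 0.579th percentile of all PER2 genes. Its log2 fold change in the authors' deposited table was -0.95 ± 0.25, -0.49 ± 0.27, -0.72 ± 0.27, -0.78 ± 0.29, -0.44 ± 0.26 and -0.88 ± 0.23. The deposited adjusted p was 0.00946 at ZT0 and 0.0115 at ZT20 in the authors' deposited table, and Stouffer's sum over all ZT gave an adjusted p of 5.72e-10. Its level was low in these libraries too, at 1.74 CPM. Removing the length and GC trend left -0.98 at ZT0 and -0.93 at ZT20, with adjusted p of 0.00470 and 0.00418.

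Ugp2 was positive at each ZT of the PER2 set, with none called alone. The authors' deposited table gave 0.21 ± 0.14, 0.24 ± 0.14, 0.34 ± 0.14, 0.26 ± 0.14, 0.05 ± 0.14 and 0.23 ± 0.13. The mean was 0.22 ± 0.09 and passed by Stouffer's sum (adjusted p = 0.000734). Gys1 had a mean of 0.12 ± 0.09 with 5 of 6 values positive and an adjusted p of 0.0190, which was lost without ZT4 (0.115), without ZT8 (0.0851), without ZT4 and ZT12 together (0.175) and with limma (0.138). Ruvbl2, opposite Gys1, had a PER2 mean of -0.04 ± 0.10 that did not pass.

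The other members missed the threshold over the 6 ZT of the PER2 set. Stbd1 had 0.11 ± 0.20, -0.27 ± 0.20, -0.02 ± 0.20, -0.21 ± 0.20, -0.48 ± 0.20 and -0.25 ± 0.18 in the authors' deposited table. Its mean was -0.19 ± 0.21 (adjusted p = 0.0852, and 0.0311 without ZT0). With any other single ZT left out it did not pass (0.0650 to 0.317), nor with limma (0.165). Ppp1r3c had 0.12 ± 0.27, 0.04 ± 0.27, 0.76 ± 0.27, -0.08 ± 0.27, 0.45 ± 0.27 and 0.08 ± 0.25 in the authors' deposited table. Its highest value, at ZT8, had an adjusted p of 0.140 in the authors' deposited table, and ZT8 was also the time of its lowest RORA value. Its mean was 0.23 ± 0.31 (adjusted p = 0.120). Gyg had a mean of 0.09 ± 0.08 (adjusted p = 0.146) and Gbe1 of 0.10 ± 0.11 (0.220). Pygm had a mean of -0.08 ± 0.05 (0.0668, and 0.0405 without ZT8). With any other single ZT left out Pygm did not pass (0.0832 to 0.233), nor with limma (0.226). Epm2a had 0.23 ± 0.06 at ZT4 in the authors' deposited table, with an adjusted p of 0.00867, and lay between -0.05 and 0.04 at the other ZT. With the length and GC trend removed its ZT4 value was 0.15, with an adjusted p of 0.135. The fold change differed between ZT for 0 of the 9 members in the PER2 set by Q and for 0.0463% of all genes, with 1 member, Epm2a, at an unadjusted p under 0.05, where 8.08% of all genes were. Q on z values and the cosine also gave 0.

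**Figure D3:**
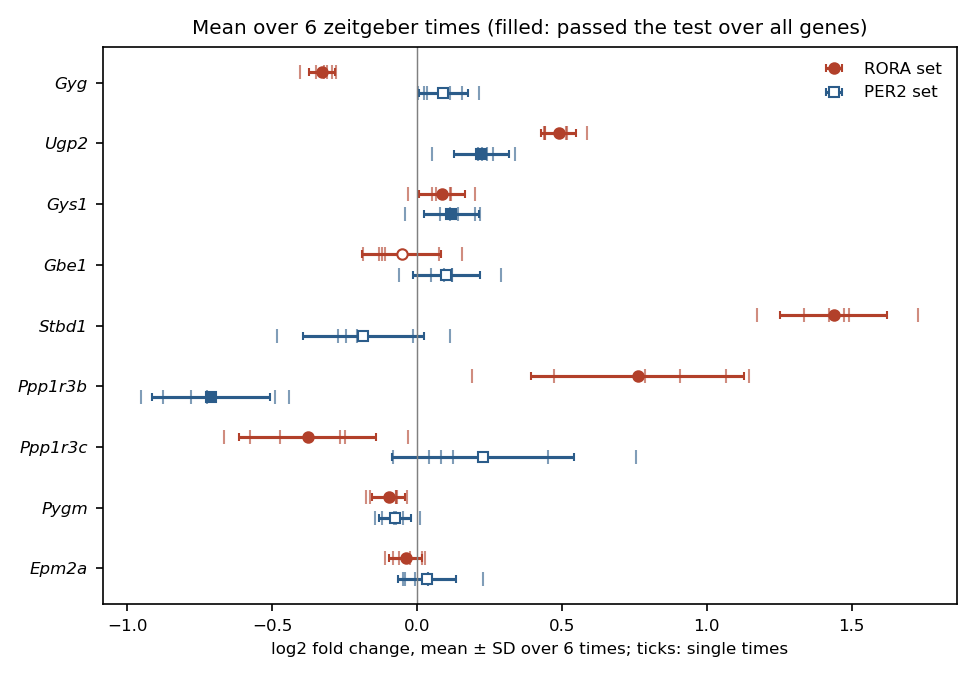
Mean ± SD over the 6 ZT of the log2 fold change of each glycogen gene in the RORA set (circles) and the PER2 set (squares), with ticks for single ZT and filled symbols where the mean passed the test over all genes. Stbd1 stands at 1.44 in the RORA set and -0.19 in the PER2 set, and Ppp1r3b at 0.76 and -0.71.

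The knockouts were compared by the difference of their weighted means, PER2 minus RORA, over 11427 genes measured in both. As deposited, 7 of the 9 members differed, where 40% of all genes did. With the sign of PER2 reversed, 5 of the 9 did, where 19.2% of genes did. Each set had its own mice and controls and its own kind of table, so knockout and set cannot be told apart. Stbd1, Gyg and Ugp2 differed under both readings. The difference was -1.62 ± 0.09 (SE) for Stbd1 as deposited (adjusted p = 3.65e-76) and -1.25 with the sign reversed (6.77e-45). For Gyg it was 0.42 ± 0.05 (adjusted p = 2.18e-17) and 0.24 (1.28e-05), and for Ugp2 -0.26 ± 0.06 (3.97e-05) and -0.71 (3.66e-31). Ppp1r3b differed by -1.44 ± 0.14 as deposited (adjusted p = 1.38e-22). With the sign reversed the difference was 0.00, with a 95% interval from -0.28 to 0.28, so that the call rests on the unstated sign. This sets a RORA value that behaves like a shrunken one against a PER2 value from another kind of table, so the interval does not bound the difference in size. Ppp1r3c differed by 0.51 ± 0.12 as deposited (0.000174) and by 0.06 reversed, with an interval from -0.18 to 0.30.

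The remaining 4 members each differed under 1 reading and not under the other. Gys1 differed by 0.03 as deposited, with an interval from -0.05 to 0.11, and by -0.21 reversed (adjusted p = 2.18e-05). Pygm differed by 0.02, with an interval from -0.06 to 0.09, and by 0.17 reversed (6.06e-05). Gbe1 differed by 0.16 as deposited (0.0347), a call lost without ZT4 (0.100), ZT8 (0.0617), ZT12 (0.0678) or ZT20 (0.168), and by -0.046 reversed. Epm2a differed by 0.07 (0.0352) and by 0.01 reversed, and its call as deposited was lost without ZT4 (0.551), ZT8 (0.0536) or ZT20 (0.104).

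The other genes of glycogen metabolism were followed in 6 lists of 35 genes. Of 32 measured in the RORA set, 6 rose, 10 fell and 16 did not pass, beside 18.9% of all genes up and 19.3% down. Their median was -0.01, against 0.00 over all genes. Of 30 measured in the PER2 set, 3 had a positive mean and 5 a negative one that passed, 22 missed the threshold, beside 10.9% of all genes positive and 10.6% negative. Their median was 0.00, against -0.02. The counts in each list below stand beside these same shares. Pgm1 and Pgm2 were left out of the PER2 lists because their symbols stand for different levels in the 2 sets of tables. Ppp1r3g, Gyg2 and Gys2 are not in the tables used.

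Phosphorylase kinase, which turns phosphorylase on, had 1 of 5 subunit genes up and 2 down in the RORA set, and 0 of 5 passed in the PER2 set. Phka1, the muscle alpha subunit, had a RORA mean of -0.10 ± 0.07 (adjusted p = 4.02e-11). Phkb had -0.06 ± 0.11 (0.000327) and Phka2 0.10 ± 0.04 (0.00426). Of 7 other targeting and catalytic genes of protein phosphatase 1, 1 rose and 3 fell in the RORA set. Ppp1r3a (GM), the main muscle targeting subunit, fell with a mean of -0.15 ± 0.04 (adjusted p = 1.30e-14), Ppp1cb with -0.07 ± 0.05 (3.98e-07) and Ppp1r3d with -0.28 ± 0.16 (4.09e-05), while Ppp1cc rose with 0.05 ± 0.04 (0.0219). In the PER2 set 2 of these 7 were negative and 0 positive, with Ppp1r3d at -0.34 ± 0.35 (0.000905). Among the targeting subunits of the phosphatase in the RORA set, Ppp1r3a, Ppp1r3c and Ppp1r3d thus fell and Ppp1r3b rose.

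Among lysosomal glucosidase and the other phosphorylases, 0 of 3 passed in the RORA set, with Gaa at -0.04 ± 0.08, Pygb at 0.02 ± 0.09 and Pygl at 0.00 ± 0.11. In the PER2 set Pygb was negative at -0.12 ± 0.06 (adjusted p = 0.00357), 1 of 3 measured. Among genes of glucose entry, 2 of 6 rose and 2 fell in the RORA set. Slc2a4, the insulin-responsive glucose transporter GLUT4, had a RORA mean of 0.14 ± 0.05 (adjusted p = 2.83e-26), and Hk2, a muscle hexokinase, 0.12 ± 0.11 (1.51e-12). Pgm2l1 had -0.17 ± 0.11 (1.12e-08) and Pgm1 -0.07 ± 0.03 (7.99e-08). In the PER2 set Hk2 was positive at 0.25 ± 0.24 (adjusted p = 0.00577) and Pgm2l1 at 0.32 ± 0.13 (5.29e-09), 2 of 4 measured.

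The kinases of glycogen synthase had 2 of 9 genes up and 3 down in the RORA set. Gsk3b, which holds synthase in its less active form, fell with a mean of -0.24 ± 0.10 (adjusted p = 4.27e-71). Prkab2, the glycogen-binding beta subunit of AMPK, fell with -0.17 ± 0.07 (3.06e-37), and Prkag3, the AMPK gamma subunit of fast muscle, with -0.26 ± 0.20 (4.95e-22). Its value in the authors' deposited table was lowest at ZT8 (-0.58) and nearest 0 at ZT16 (-0.01). These are also the times of the deepest and the smallest value of Ppp1r3c, whose change with ZT missed the threshold by Q (adjusted p = 0.0538). Fast-fibre markers at ZT8 ran from -0.46 to 0.21 in the RORA set, and both Prkag3 and Ppp1r3c lay below that range. The median of these markers was -0.12 at ZT8 and -0.13 at ZT16. Gsk3a rose with 0.05 ± 0.03 (0.000712). In the PER2 set Gsk3b was positive at 0.18 ± 0.12 (adjusted p = 0.00102) and Prkab2 negative at -0.20 ± 0.09 (6.97e-05). Nhlrc1, the ligase malin that works with laforin, had means of 0.00 ± 0.07 in the RORA set and -0.12 ± 0.26 in the PER2 set, and Epm2aip1 of 0.03 ± 0.11 and 0.00 ± 0.14, with 0 of 2 passed in either. Beside these, fast-fibre markers in the RORA set counted 1 up and 6 down of 10, with a median of -0.09, and their part in the values of genes richer in fast fibres was not tested.

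**Figure D4:**
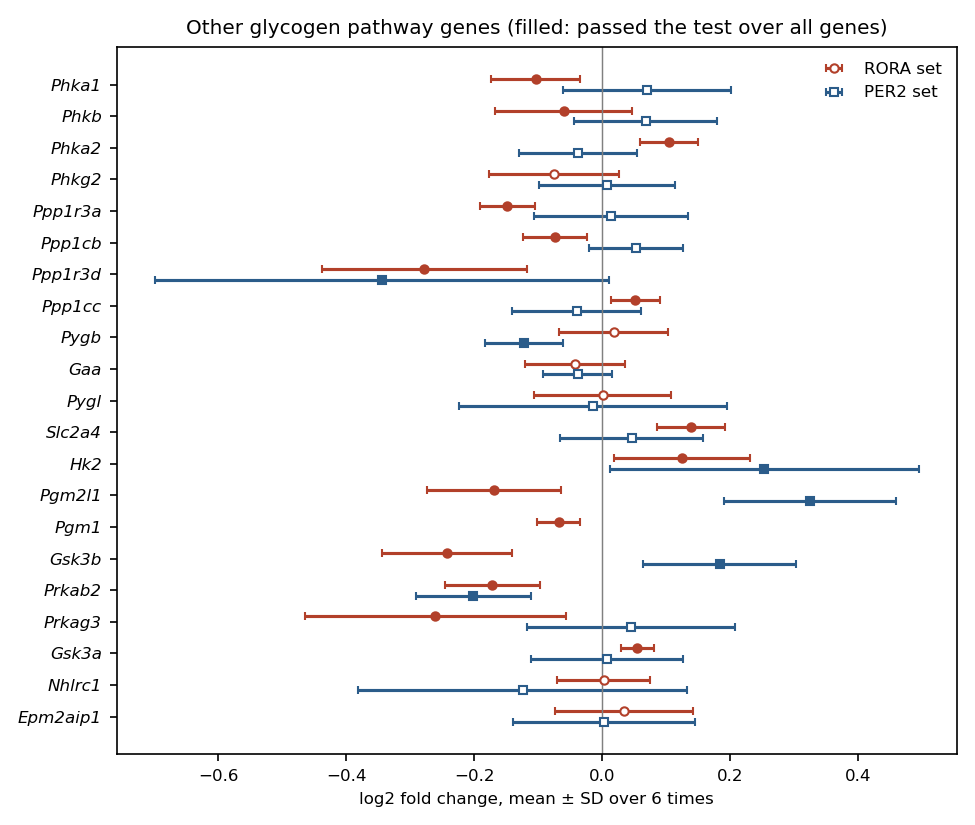
Mean ± SD over the 6 ZT of the log2 fold change of other glycogen pathway genes in the RORA set (circles) and the PER2 set (squares), filled where the mean passed the test over all genes; Pgm1 has no PER2 value. Gsk3b stands at -0.24 in the RORA set and at 0.18 in the PER2 set, and all means lie between -0.34 and 0.32.

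Genes whose 12 fold changes lay nearest to those of Stbd1 and Ppp1r3b were found by the root mean square difference over both sets, among 8652 genes at 50 normalized counts or more in the RORA libraries, a level that Ppp1r3b itself does not reach. Nearest to Stbd1 was Rian, a long noncoding RNA, at 0.255, with a RORA mean of 1.33 ± 0.41 and a PER2 mean of -0.19 ± 0.10. Irak2 followed at 0.282, with means of 1.16 ± 0.11 and -0.26 ± 0.16, and Aurka, a mitotic kinase, at 0.310, with 1.79 ± 0.16 and -0.22 ± 0.22. Nearest to Ppp1r3b were Il12a at 0.299, with a RORA mean of 0.76 ± 0.16 and a PER2 mean of -0.49 ± 0.28, Spsb1 at 0.333, with 0.90 ± 0.21 and -0.46 ± 0.20, and Mchr1 at 0.342, with 0.43 ± 0.28 and -0.49 ± 0.16. These distances are descriptions over 12 values, and genes of 1 library are not independent.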

How the data were processed

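RNA-seq of 79 mouse muscle libraries, each from 1 mouse by the design text, was compared by the authors as MKO against CTRL in 12 tables, 1 per knockout and ZT. Per the submitters' processing notes, the tools were STAR, Trimmomatic, DESeq2, bcl2fastq 2.20.0.422, MultiQC and R 4.1. The notes also name the genome builds mm9 and GRCm39, without saying which served what. The read counter, the use of strand and the annotation were not given in the sources used here. No value of a single library was used here, so depth is unknown and precision is that of the deposited errors and tests.

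Per the file headers, the RORA tables give for each gene a signal level (the mean normalized count), the log2 fold change, its standard error, and p-values raw and adjusted. Per the labels, genes had to have 10 reads in 3 samples. Fold change over error was 0.795 times the z of the p in the median. The PER2 tables, per the file headers, give log2 values (the fold change and the mean CPM), the score of a likelihood ratio test, and raw and adjusted p-values. Neither headers nor labels say which PER2 genotype is the numerator. The PER2 error was derived by dividing the size of the fold change by the root of that score.

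RORA means over ZT were tested as inverse-variance weighted means and PER2 means by summing signed z values (Stouffer), changes with ZT by Cochran's Q (degrees of freedom: 5), and the knockouts by the difference of weighted means. Each p was two-sided and adjusted by Benjamini-Hochberg over all genes, with a threshold of 0.05. Scripts were tested on simulated data. Alternatives were limma 3.58.1 (R 4.3.3), other sums, filters (50 normalized counts, 1 CPM), a 24 h cosine, removal of a length and GC trend of degree 3, leaving out ZT, and the reversed PER2 sign. Transcript lengths, GC content and exon overlaps came from GENCODE M21 (GRCm38, which the notes do not name) and promoters from RefSeq. Python 3.11.15, NumPy 2.4.6, pandas 2.3.3, SciPy 1.17.1 and matplotlib 3.10.9 were used. The members, lists, tests and naming rule were chosen with earlier results of these data known. One gene of a pathway list was left out of the lists and their counts, and other list genes outside the naming rule enter the counts only. The rule names all members, up to 4 genes per pathway list with the smallest adjusted p in either set, and the 3 nearest genes for members with a RORA mean of at least 0.5 in size.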

Additional observations from a re-analysis of the deposited data

Results flagged for a closer look

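In the RORA set, the fold change differed between ZT by Cochran's Q for Stbd1 (adjusted p = 0.00107), from 1.17 to 1.73, for Gbe1 (0.00167), from -0.19 to 0.15, and for Gys1 (0.00637), from -0.03 to 0.20. Between the knockouts, PER2 minus RORA differed whichever way the PER2 sign is read for Stbd1, at -1.62 as deposited, for Gyg, at 0.42, and for Ugp2, at -0.26. Knockout and set cannot be told apart in these differences.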

How the results depend on the processing

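No paired analysis was possible because the tables hold the authors' comparisons and no value per library. Leaving out single libraries was not run for the same reason, so each ZT was left out in turn instead. The number of members whose RORA fold change differed between ZT was 3, was 4 with Q on z values and 0 with the 24 h cosine. With single ZT left out it ran from 1 (without ZT8) to 4 (without ZT12). The number with a RORA mean past the threshold was 8, was 6 with limma, and ran from 7 to 9 without single ZT, and the number with a PER2 mean past it was 3 and ran from 2 to 4. Over all members and settings, 71 of 80 RORA means and 93 of 99 PER2 means kept their side of the threshold and their direction. So did 57 of 72 differences between the knockouts. Ppp1r3b, below 50 normalized counts, has no RORA value under the filter on low values, and the calls at single ZT there were 33 in place of 37. With the PER2 sign reversed, PER2 minus RORA changed sign for Gys1 (-0.21) and Gbe1 (-0.046). For Gys1 it also did so as a difference of Stouffer z values (-2.32), and the cause was not tested. With the length and GC trend removed, the calls at single ZT of the PER2 set lost Epm2a at ZT4 and gained Ugp2 at ZT8 (0.46, adjusted p = 0.0349). The deposited errors and the level of Ppp1r3b, 1.74 CPM, limit what can be seen at single ZT.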
